A study of Mus musculus with 64 samples.

Results

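Expression of 34 genes of the unfolded protein response and the integrated stress response was followed across blood progenitors of Smarcd2-mutant mouse fetuses. The genes were chosen by symbol, through the Ensembl identifiers that the count tables give, and are 34 of the 37607 annotated genes listed in at least 1 table. They comprise 17 endoplasmic reticulum (ER) chaperones and folding factors, 5 genes of ER-associated degradation, 5 sensors and transcription factors, and 7 targets of the transcription factor ATF4. All 34 are listed for LSK and GMP, 32 for CMP (without Trib3 and Ddit4) and 31 for MEP (without Trib3, Chac1 and Ddit4). All 34 passed the filter on low counts in LSK, and 31 passed it in each of CMP, GMP and MEP, where Trib3, Chac1 and Ddit4 were not tested.

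Proteins that enter the ER are folded there by chaperones such as BiP, the product of Hspa5, and by disulfide isomerases. When unfolded protein accumulates, the membrane sensors IRE1 (Ern1), ATF6 and PERK (Eif2ak3) signal to the nucleus: IRE1 splices the Xbp1 transcript, ATF6 is cleaved to an active factor, and PERK phosphorylates the translation factor eIF2α, which lowers protein synthesis while translation of ATF4 goes up. Blood stem cells and myeloid progenitors make proteins at very different rates, and granule-forming progenitors load large amounts of protease and peroxidase into the ER.

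The study sorted 4 progenitor populations from C57BL/6 fetal liver of 3 genotypes: Smarcd2 wild type (WT), Smarcd2 +/- (HET) and Smarcd2 -/- (KO). Smarcd2 encodes a subunit of the SWI/SNF (BAF) chromatin remodelling complex that many blood cells use. The labels give the genotype of the fetus and name no tissue-restricted deletion. Fetuses were taken at 13/14 dpc (days post coitum), except for 1 heterozygous CMP library (HET 1) given as 14.5 dpc. LSK cells, which hold blood stem cells and multipotent progenitors, were CD45.2+, lineage-negative, Mac+/low, Sca1+ and cKit+, and came from fetuses of both sexes. They gave 5 libraries of WT, 9 of HET and 9 of KO. Of the WT libraries only WT21.5 was male, and of the KO libraries KO19.5, KO20.3, KO22.2 and KO24.5 were. The part of sex in the results was not tested. Common myeloid progenitors (CMP; 3 WT, 7 HET, 4 KO), granulocyte-monocyte progenitors (GMP; 3, 7, 3) and megakaryocyte-erythroid progenitors (MEP; 3, 7, 4) were lineage-negative and Sca-1-negative, were separated by CD34 and CD16/32, and have no sex determined. The labels print CD177+ for these gates, whereas the staining protocol names an antibody to CD117 (c-Kit). Full-length cDNA was amplified by Smart-seq2 and counted per gene. The labels number the libraries but do not say which fetus each came from, so the p-values below measure the spread between these libraries. In sorted bulk samples, fewer cells of a type and less RNA per cell cannot be told apart.

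Libraries held 4327582 to 24069833 gene-assigned reads in LSK, 1577073 to 8092644 in CMP, 1006090 to 6300070 in GMP and 1488328 to 5646315 in MEP. Smarcd2 itself was at 46.4 to 137 CPM (reads of the gene relative to all gene reads of the library) in WT libraries of all populations and at 0 to 2.02 CPM in KO libraries. HET libraries had 10.78 to 101.5 CPM, except for the library labelled GMP HET 8 at 2.512, near the KO level, and 10.78 was that of CMP HET 8. Markers of the GMP gate followed the labels in WT: the summed level of 6 GMP genes (Kit, Cd34, Fcgr3, Fcgr2b, Cebpa, Mpo) was 8465 to 27770 CPM in WT GMP, 3901 to 5278 in WT CMP and 309.6 to 466.5 in WT MEP. In the library labelled GMP HET 8 the sum was 725, below all WT CMP libraries. Genes of the MEP gate summed to 850.8 to 962.2 CPM in WT MEP, 291 to 380.8 in WT CMP and 156 to 359.3 in WT GMP. In WT LSK they summed to 689.2 to 915, which overlaps WT MEP. The median correlation with the other libraries of its population was 0.811 for CMP HET 8 and 0.23 for GMP HET 8. It was 0.793 for MEP HET 8 and 0.795 for MEP KO 15, and results that rest on these 4 libraries are given with and without them. GMP KO 15 (0.758), GMP KO 6 (0.787) and GMP HET 7 (0.808) were also below 0.811. The fits without the 4 libraries keep them. Spike-in RNA took 2.52 to 3.06% of reads in the 3 GMP KO libraries and 0.0091 to 0.394% in all other GMP libraries.

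ATF6 and XBP1 act through short promoter elements, and ATF4 through another, so the members' matches to them are shown before the values. RefSeq promoter windows (GRCm38.p6, 250 bases before to 50 after the gene start) were matched for 30 of the 34 members (not for Hyou1, Ero1l, Manf and Atf6). Each window was searched on both strands for the ER stress response element (ERSE, CCAAT, then 9 bases, then CCACG), ERSE-II (ATTGG, 1 base, CCACG), the unfolded protein response element (UPRE, TGACG directly followed by TGG) and the C/EBP-ATF element (TGATG, 1 base, AA). ERSE was found at 8 of 30 members, of which 7 are chaperone genes, against 37 of 27025 genes (0.137%), or 39 of 32851 promoters (0.119%). The 9 matches are written 5′ to 3′ on the strand that reads CCAAT first, with the fixed letters in capitals.
Hspa5: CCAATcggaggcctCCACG
Hsp90b1, distal: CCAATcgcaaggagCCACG
Hsp90b1, proximal: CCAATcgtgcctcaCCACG
Dnajc3: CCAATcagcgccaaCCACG
Calr: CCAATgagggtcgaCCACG
Canx: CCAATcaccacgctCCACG
Pdia6: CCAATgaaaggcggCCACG
Creld2: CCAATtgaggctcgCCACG
Syvn1: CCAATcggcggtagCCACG
In Hspa5 the match runs from 65 to 47 bases before the start (chr2:34772025-34772043, plus strand). The proximal Hsp90b1 match (chr10:86705533-86705551) and those of Calr and Creld2 lie on the strand opposite to the gene. ERSE-II was found at 2 members, against 0.0365% of promoters, and the C/EBP-ATF element at 4, against 3.97%. Of those 4, 3 are ATF4 targets (Trib3, Chac1 and Asns) and 1 is the degradation gene Herpud1. These 6 matches are written the same way.
Dnajb11: ATTGGcCCACG
Herpud1, ERSE-II: ATTGGgCCACG
Herpud1, C/EBP-ATF element: TGATGcAA
Trib3: TGATGtAA
Chac1: TGATGcAA
Asns: TGATGaAA
UPRE was found at 0 of the 30 matched members and in 0.676% of all promoters, which says only that those letters are not in these windows. A match is a description of the sequence, not evidence of binding. The members were chosen as genes of these responses, so their share of matches beside that of all genes is no test.

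The whole 250 bases before the start are shown for 3 chaperone genes that have an ERSE match, chosen after their values were seen: Hspa5, and Hsp90b1 and Dnajc3, which were called lower in KO in both LSK and CMP. Hspa5 (chr2:34771840-34772089, plus strand) has 1, Hsp90b1 (chr10:86705445-86705694, minus strand) has 2 and Dnajc3 (chr14:118937682-118937931, plus strand) has 1. All 3 runs are GRCm38.p6 on the gene's strand, 5′ to 3′, with each whole match in capitals.
Hspa5: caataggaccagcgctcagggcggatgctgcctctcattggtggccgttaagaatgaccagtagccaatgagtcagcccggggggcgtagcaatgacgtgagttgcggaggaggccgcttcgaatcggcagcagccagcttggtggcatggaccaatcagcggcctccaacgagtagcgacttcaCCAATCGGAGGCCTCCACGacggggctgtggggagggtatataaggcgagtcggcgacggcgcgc
Hsp90b1: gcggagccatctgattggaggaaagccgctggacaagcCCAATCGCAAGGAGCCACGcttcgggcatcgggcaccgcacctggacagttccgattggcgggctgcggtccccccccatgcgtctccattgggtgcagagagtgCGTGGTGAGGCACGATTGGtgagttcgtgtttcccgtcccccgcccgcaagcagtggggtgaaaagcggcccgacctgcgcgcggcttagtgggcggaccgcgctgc
Dnajc3: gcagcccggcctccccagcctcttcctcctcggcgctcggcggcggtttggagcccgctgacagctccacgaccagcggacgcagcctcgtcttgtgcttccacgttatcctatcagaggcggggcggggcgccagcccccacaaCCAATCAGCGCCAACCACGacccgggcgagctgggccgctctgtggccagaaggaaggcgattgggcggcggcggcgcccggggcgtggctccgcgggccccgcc

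**Figure D1:**
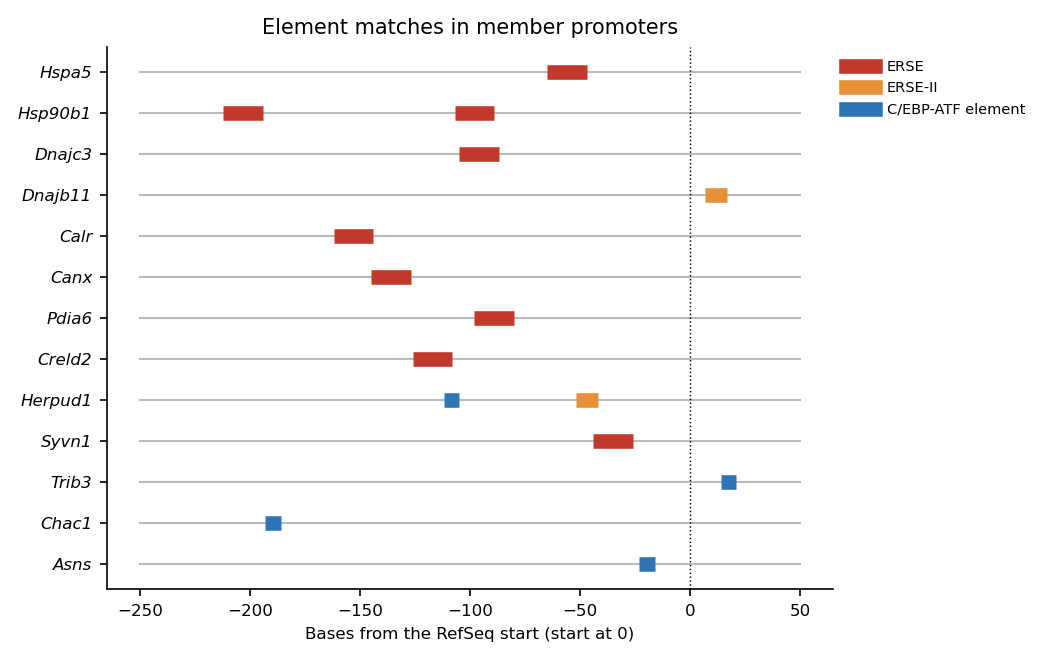
Position of each element match in the promoter windows of the members that have one, in bases from the gene start (x axis), 1 line per gene and 1 colour per element. ERSE matches lie before the start in all 8 genes that have one, and the ERSE-II match of Dnajb11 lies 7 to 17 bases after it.

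In LSK cells, ER chaperone transcripts fell together in Smarcd2 KO. With edgeR's quasi-likelihood test, 15 of the 17 chaperone genes were lower in KO than in WT and none was higher, with a median log2 fold change of -0.41 over the 17, beside 0.01 over all genes tested. Over all 34 members, 17 were lower and 3 higher, where 18.8% of the 13878 genes tested were called (9.53% higher and 9.28% lower). A gene was called at a Benjamini-Hochberg adjusted p of 0.05 or less over all genes tested. Log2 fold changes below 0 mean a lower level in KO, and each is given with its standard error (SE).

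Pdia3, a disulfide isomerase that works on glycoproteins, was at 1572, 1711, 1749, 1848 and 1618 CPM in the 5 WT libraries, and at 1018 (lowest), 1204 (median) and 1492 (highest) in the 9 KO libraries. No KO library reached the lowest WT library. Its log2 fold change was -0.48 (SE 0.0928, adjusted p = 0.000893). Hspa5, the central ER chaperone, was at 1091, 1195, 1264, 1291 and 1099 CPM in WT, and at 629.3, 824 and 986 (lowest, median, highest) in KO. Here too the groups did not overlap, and the log2 fold change was -0.55 (SE 0.112, adjusted p = 0.00133). Dnajb11, a co-chaperone of BiP, was at 147.1, 147.6, 145.9, 159.1 and 146.9 CPM in WT and at 90.34, 110.3 and 128.3 in KO, again without overlap, a log2 fold change of -0.46 (SE 0.0906, adjusted p = 0.00105). Hsp90b1, the ER form of HSP90 (GRP94), was at 965.2, 1064, 1163, 1201 and 1142 CPM in WT and at 544.7, 748.7 and 924 in KO. All 9 KO libraries were below all WT libraries, with a log2 fold change of -0.58 (SE 0.139, adjusted p = 0.00516).

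Manf, a secreted ER stress factor, and Sdf2l1, a BiP cofactor, had changes of about the same size as Hspa5. Manf was at 112.7, 90.8, 88.12, 98.91 and 84.33 CPM in WT and at 53.83, 64.1 and 79.02 in KO, without overlap (log2 fold change -0.52, SE 0.131, adjusted p = 0.00653). Sdf2l1 was at 48.62 to 58.55 CPM in WT and 25.46 to 48.45 in KO (log2 fold change -0.50, SE 0.156, adjusted p = 0.0258). Hyou1, the nucleotide exchange factor of BiP, fell by 0.47 on the log2 scale (SE 0.127, adjusted p = 0.0104), with WT libraries at 62.52 to 83.3 CPM and KO libraries at 41.63 to 69.23, an overlap. Sec61b, a subunit of the channel through which proteins enter the ER, fell by 0.43 (SE 0.132, adjusted p = 0.0230), and its groups overlapped, at 49.89 to 71.65 CPM in WT and 32.94 to 64.15 in KO. Dnajc3, which binds BiP clients and restrains eIF2α kinases, fell by 0.41 (SE 0.101, adjusted p = 0.00586), from 118.1 to 150.8 CPM in WT to 79.21 to 113.5 in KO, without overlap.

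The lectin chaperones and the other isomerases moved less. Canx fell by 0.31 on the log2 scale and Calr by 0.24, Pdia4 by 0.30, Pdia6 by 0.27 and P4hb by 0.21, and Creld2, a resident ER protein with disulfide activity, by 0.35. Adjusted p-values of these 6 ran from 0.0165 for Canx to 0.0454 for Creld2. Ero1l, the oxidase that recharges disulfide isomerases, did not go with them: it was at 74.63 to 138.2 CPM in WT and 88.76 to 173.1 in KO, a log2 fold change of 0.26 that did not pass. Dnajb9, a BiP co-chaperone that is a classical IRE1-XBP1 target, had a log2 fold change of 0.09 and did not pass either.

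**Figure D2:**
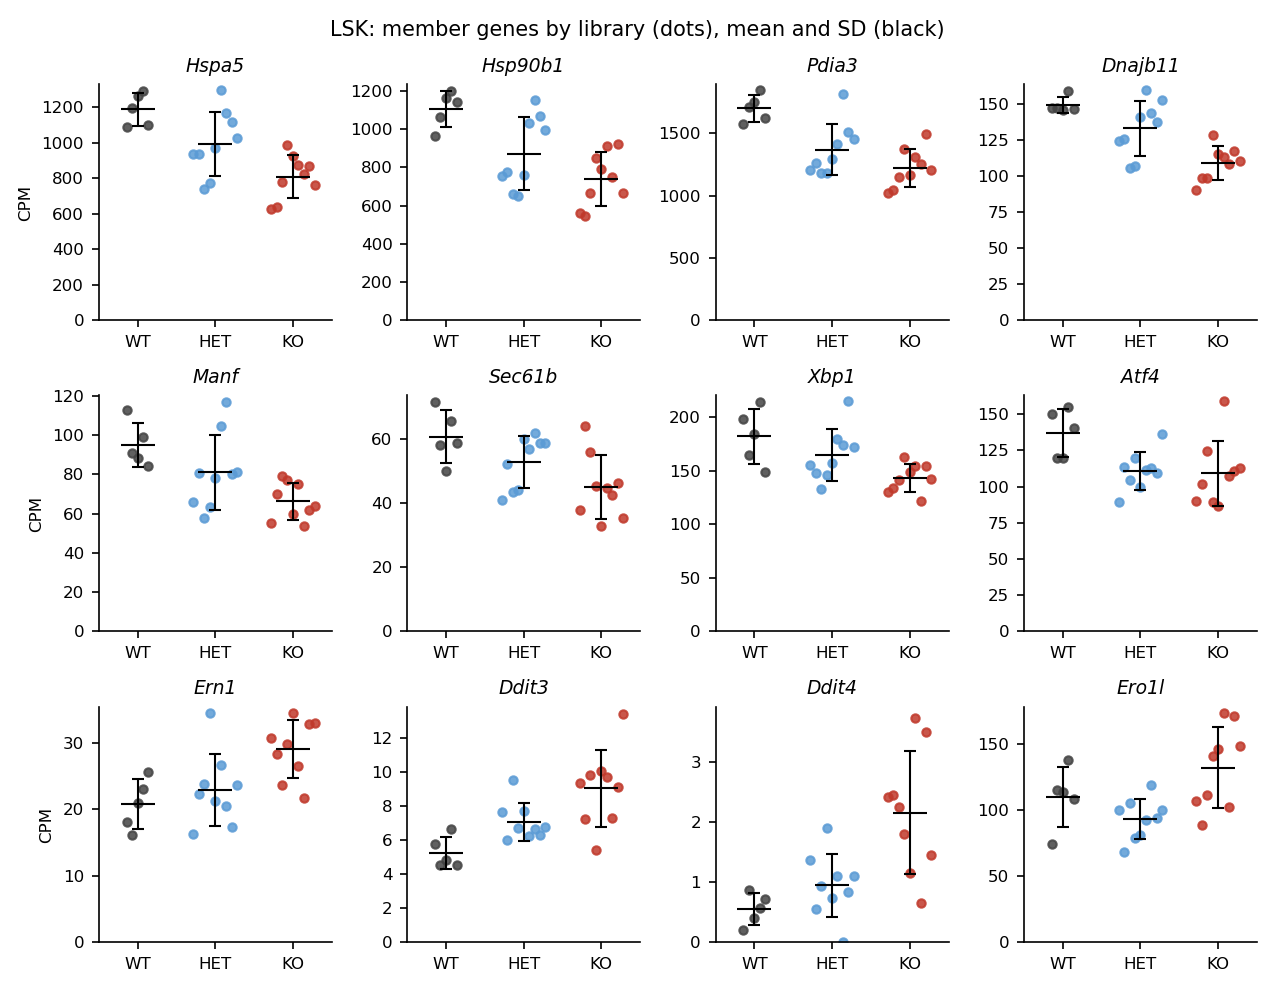
CPM in each LSK library (dots, linear axis from 0) of 12 members, by genotype, with the group mean and SD in black. Hspa5 spans 1091 to 1291 CPM in WT and 629.3 to 986 in KO, and Ddit3 spans 4.53 to 6.67 in WT and 5.41 to 13.4 in KO.

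The ER degradation genes did not share the fall. None of the 5 was called by edgeR and 1 had an unadjusted p below 0.05, and their median log2 fold change was 0.17. DESeq2 called 20 of the 34 members, none of them a degradation gene. Herpud1, a scaffold of the degradation complex, was at -0.10, and Sel1l, the partner of the ubiquitin ligase, at -0.09. That ligase, Syvn1 (HRD1), and the mannosidase-like Edem1 were both at 0.23. Edem2 was at 0.17 (adjusted p = 0.0815), with 82.87 to 89.6 CPM in WT and 83.33 to 107.4 in KO. The element search found ERSE in Syvn1, the only ERSE-bearing member that was not lower in KO LSK cells. Of the 8 ERSE members 7 were called lower, with a median log2 fold change of -0.33. Chaperones with a matched window but no ERSE match fell as well. Of these, Dnajb11 (which has an ERSE-II match), Sdf2l1, Pdia3, Pdia4, P4hb and Sec61b were called lower and Dnajb9 was not. The search took exact letters only, and the part of these elements in the fall was not tested. Of 10 other tested genes with an ERSE match, none was lower and 1, Pan2, was higher, with a median of -0.45.

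Among the sensors and factors, Xbp1 and Atf4 fell and Ern1 rose. Xbp1, the transcript that IRE1 splices, was at 198.1, 165.1, 183.9, 213.7 and 148.8 CPM in WT and at 122.1, 141.9 and 162.8 (lowest, median, highest) in KO. The WT library WT24.10 lay within the KO range, and the log2 fold change was -0.35 (SE 0.0958, adjusted p = 0.0124). Gene counts do not separate spliced from unspliced Xbp1. Atf4 was at 150.3, 119.7, 119.9, 154.8 and 140.2 CPM in WT and at 86.7, 107.5 and 159.3 in KO, with overlap, a log2 fold change of -0.33 (SE 0.115, adjusted p = 0.0451). Ern1, which encodes IRE1, was at 18.06, 16.21, 20.92, 22.99 and 25.63 CPM in WT and at 21.75, 29.76 and 34.54 in KO, a log2 fold change of 0.48 (SE 0.152, adjusted p = 0.0254). Ern1 (chr11:106394650-106487852, GRCm38) lies 121677 bases from Smarcd2 (chr11:106263179-106272972), with 6 coding genes between them, and whether this nearness to the mutated locus has a part in its rise was not tested. With the index of long against short transcripts described below as a covariate, all 3 lost their call, at adjusted p = 0.118 for Ern1, 0.0890 for Xbp1 and 0.172 for Atf4. Atf6 (0.20) and Eif2ak3, which encodes PERK (0.06), did not pass.

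Of the 7 ATF4 targets, Ddit3 and Ddit4 rose and 5 did not pass. Ddit3, which encodes the pro-apoptotic factor CHOP, was at 5.76, 4.53, 4.83, 6.67 and 4.55 CPM in WT and at 5.41, 9.34 and 13.4 in KO, with a log2 fold change of 0.77 (SE 0.183, adjusted p = 0.00416). The lowest KO library lay inside the WT range. Ddit4 (REDD1), an inhibitor of mTORC1 that also responds to hypoxia and glucocorticoid, rose by 1.95 on the log2 scale (SE 0.481, adjusted p = 0.00545) from a very low level: it had 1 to 5 reads in each of the 5 WT libraries, 15 in all, and 3 to 34 in each of the 9 KO libraries, 148 in all. On the CPM scale that was 0.198 to 0.871 in WT and 0.646 to 3.73 in KO. Trib3, a pseudokinase that restrains ATF4 output, was at 0.46, the phosphatase subunit Ppp1r15a (GADD34) at 0.34 and Sesn2, a leucine sensor, at -0.03. Chac1, which degrades glutathione, was at -0.33 and Asns, the asparagine synthetase, at -0.30 (adjusted p = 0.0839).

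The same directions were seen inside the LSK series, the first part of the library number in the titles. In all 4 series that hold both genotypes, the mean log2 difference of KO from WT was below 0 for the 17 members that fell. It was above 0 for the 3 that rose. These members were picked by a test on the same libraries, so their signs here are no separate support. Series 19, 22 and 24 hold 1 WT library each, and series 24 also holds 1 KO library. For Hspa5 the 4 differences ran from -0.78 to -0.37, for Pdia3 from -0.61 to -0.43, for Hsp90b1 from -0.80 to -0.44 and for Ddit3 from 0.36 to 1.46. Ero1l, Syvn1 and Edem2, which did not pass, were also above 0 in all 4, at 0.11 to 0.46 for Ero1l. The call count changed with the fit. Without the WT library WT22.8 it was 11 of 34, with the spike-in percentage of each library added to the model 8 (Hspa5, Dnajb11, Pdia3, Manf, Sec61b, Ern1, Ddit3 and Ddit4), and with an index of long against short transcripts as a covariate 10 (Hspa5, Hsp90b1, Hyou1, Dnajc3, Dnajb11, Canx, Pdia3, Manf, Ddit3 and Ddit4). Spike-in RNA took 0.339 to 0.704% of reads in WT and 0.381 to 1.20% in KO, and the index ran from -0.24 to 0.01 in WT and from -0.19 to 0.27 in KO.

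Contents of the LSK gate also differed between the genotypes. The summed level of 6 genes of the gate (Kit, Ly6a, Flt3, Mecom, Hlf, Meis1), all detected, was 1340 to 1513 CPM in WT and 1601 to 2085 in KO, without overlap, and 3 of the 6 were called higher. The 10 erythroblast genes summed to 109.3 to 1860 CPM in WT and 116.6 to 490.7 in KO, the 10 macrophage genes to 194.9 to 1281 and 99.78 to 1883, the 8 primary granule genes to 906.7 to 1360 and 988.5 to 1443, and the 12 hepatocyte genes to 14.49 to 22.04 and 11.76 to 57.28, with KO22.5 the only KO library not above all WT libraries. Of the hepatocyte genes, 1 was at 0 in every WT library and 1 in every KO library. The part of these lists in the chaperone result was not tested. Members whose exons overlap another gene were counted without strand: 10.29% of the Hsp90b1 exon bases, 8.05% of those of Eif2ak3, 4.14% of those of Manf (with Dcaf1) and 6.13% of those of Ddit3 (with a second annotated Ddit3 gene) are shared.

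Heterozygous LSK cells had chaperone levels below WT by fold change, but no member passed. In HET against WT edgeR called 0 of 34 members, 8 had an unadjusted p below 0.05 and DESeq2 also called 0, beside 0.00721% of all genes called. All 17 chaperones had a log2 fold change below 0, with a median of -0.17, and 15 of the 17 were again below 0 in KO against HET. In KO against HET, 6 members were called where 11.1% of all genes were: Hspa5 (-0.30, adjusted p = 0.0453), Dnajb11 (-0.29, adjusted p = 0.0147), Pdia6 (-0.22, adjusted p = 0.0398) and Creld2 (-0.33, adjusted p = 0.0350) were lower, and Ero1l (0.50, adjusted p = 0.0150) and Ddit4 (1.20, adjusted p = 0.0207) were higher. Hspa5 in HET was at 737.5, 970.3 and 1295 CPM (lowest, median, highest), which covers the whole WT range and overlaps the KO range. Its HET libraries were below WT in series 19 (737.5 to 936.2 against 1091), 22 (1118 against 1291) and 24 (1024.5 against 1099). In series 21 they overlapped WT (1166 and 1295 against 1195 and 1264), and series 20 holds no WT library. Ero1l was at 68.17 to 118.8 CPM in HET and 88.76 to 173.1 in KO. These comparisons share libraries with KO against WT, and the number called in KO against HET was 16 with the series as a block and 3 when only the libraries of both groups were fitted. It was also 3 without any 1 of the HET libraries HT21.4, HT21.6 and HT22.6 or of the KO libraries KO19.5, KO19.6, KO22.5 and KO24.5.

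Other genes of the same pathways were counted against the same background, 18.8% of all genes called, 9.28% lower and 9.53% higher. Of 19 genes of ER import and glycosylation tested in KO against WT LSK cells, 6 fell and none rose, with a median log2 fold change of -0.17. Rpn1 (-0.34) and Rpn2 (-0.24) are subunits of the oligosaccharyltransferase and Ssr1 (-0.27) is part of the translocon-associated complex. Of 16 other ER folding genes, 1 fell (the prolyl isomerase Ppib, -0.45) and 1 rose (Sdf2, 0.33). Of 12 other ER degradation genes, 3 fell and 1 rose, among them Selenos (-0.37), Os9 (0.24) and Edem3 (-0.42). Of 13 other sensors and regulators, 2 fell (Eif2s1, which encodes eIF2α, -0.38, and the phosphatase subunit Ppp1r15b, -0.27) and 1 rose (Eif2ak2, which encodes the kinase PKR, 0.50).

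Of 23 further ATF4 targets of amino acid metabolism and tRNA charging, 10 fell and 2 rose (Pycr1 and Vldlr), with a median of -0.21. The glycyl-tRNA synthetase Gars fell by 0.50 on the log2 scale (adjusted p = 1.87e-05), the mitochondrial folate enzyme Mthfd2 by 0.60 (adjusted p = 0.00111) and the glutamyl-prolyl-tRNA synthetase Eprs by 0.28 (adjusted p = 0.00160). In the same cells Ddit3 and Ddit4 rose, so the ATF4 targets did not move as 1 group. In KO against HET, which shares the KO libraries, this list gave 10 lower and 2 higher, where 11.1% of all genes were called. None of these 5 lists had a called gene in CMP, GMP or MEP in any comparison of genotypes.

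In CMP, the chaperones were lower in KO libraries and 3 of 31 tested members passed. Hsp90b1 was at 1302, 1223 and 1079 CPM in the 3 WT libraries and at 730.8, 621.0, 607.3 and 496.0 in the 4 KO libraries, without overlap (log2 fold change -0.97, SE 0.202, adjusted p = 0.0138). The 7 HET libraries ran from 599.7 to 1238 with a median of 877.2. Dnajc3 was at 149.2, 122.2 and 116.8 CPM in WT and 92.72, 80.56, 70.03 and 72.96 in KO, again apart (-0.71, SE 0.171, adjusted p = 0.0351). Ero1l, which was higher in KO than in HET in LSK cells, was lower in KO than in WT here: 110.2, 89.96 and 69.75 CPM in WT and 56.96, 31.91, 35.77 and 33.08 in KO (-1.20, SE 0.272, adjusted p = 0.0248). All 17 chaperones had a log2 fold change below 0, with a median of -0.61, and so did 29 of the 31 members, with a median of -0.43 beside -0.01 over all genes. The share of all genes called was 1.84%.

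The CMP count turned on single libraries. Without HET 8, which belongs to neither group but shares the estimate of spread, 12 members were lower and none was higher, where 4.38% of all genes were called. Xbp1 (-0.48, adjusted p = 0.0488) was the only one of the 12 that is no chaperone, and Hspa5 was at -0.69 (adjusted p = 0.00343). Hspa5 was at 1997, 1876 and 1653 CPM in WT and at 1040, 1058, 1157 and 1337 in KO, without overlap, and at 594.1 in HET 8. Without WT 2, without WT 5 or without KO 15 the count was 0, without KO 11 or KO 13 it was 1, and with the series as a block it was 0. In the 2 series that hold both genotypes, with 1 KO library each, the Hsp90b1 difference was -0.80 and -0.79. That of Hspa5 was -0.90 and -0.64. KO 13 and KO 15 came from another series of the titles, M34, which holds only KO libraries. For these libraries KO and series cannot be told apart.

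Against HET, the CMP KO libraries gave 0 called members by edgeR, 9 with an unadjusted p below 0.05 and 3 by DESeq2, where 2.19% of all genes were called. Without HET 8, edgeR called 7 chaperones lower (Hspa5, Hsp90b1, Dnajc3, Sdf2l1, Calr, Pdia3 and Pdia4), beside 3.6% of all genes. Sdf2l1 had the lowest adjusted p of these (-0.81, SE 0.143, adjusted p = 0.00246). In HET against WT, 0 of 31 members were called by edgeR or DESeq2 and 2 had an unadjusted p below 0.05, and the share of all genes called was 0%. Hepatocyte transcripts also differed between WT and KO CMP: the 12 genes, all detected, summed to 316.8 to 810.5 CPM in WT and 39.09 to 140.8 in KO. In HET 7, HET 9 and HET 10 they summed to 31.93, 36.54 and 66.9, where Hspa5 was at 1564, 1792 and 1247 CPM. In HET 1 and HET 3 they summed to 1181 and 1843, with Hspa5 at 1660.5 and 1475.5. The 8 primary granule genes summed to 4441 to 5522 CPM in WT and 3083 to 4518 in KO. Their part in the chaperone result was not tested.

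**Figure D3:**
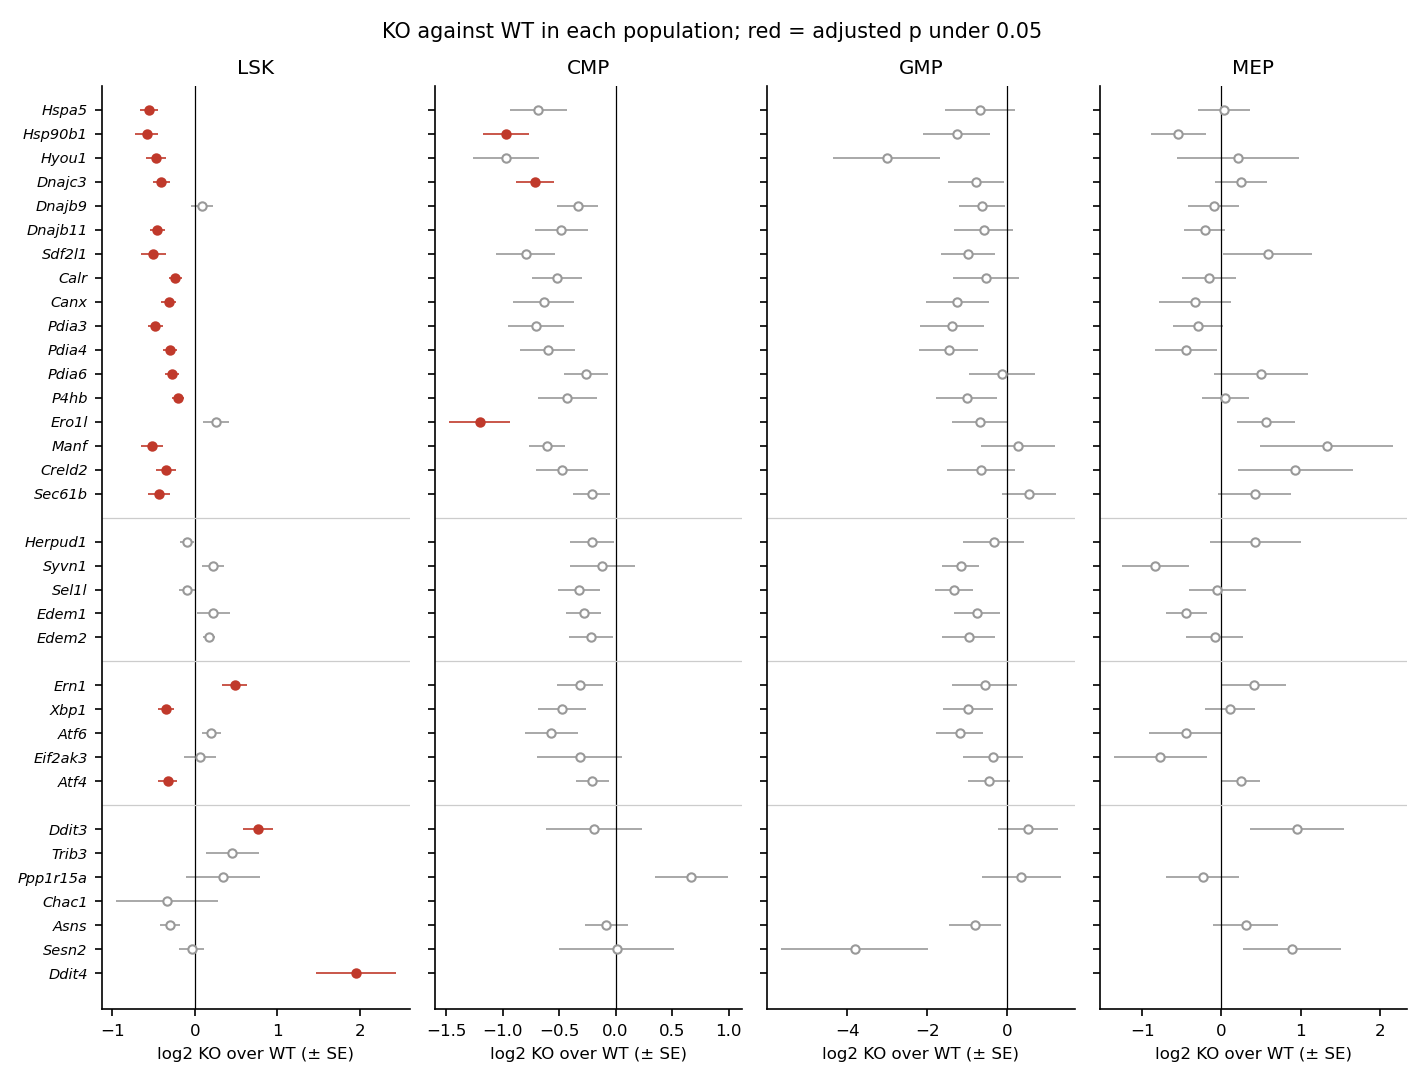
Log2 fold change of KO against WT for each tested member (1 line per gene, bars ± 1 SE, red where called) in LSK, CMP, GMP and MEP, each panel with its own x scale. The chaperones lie below 0 in LSK except for Ero1l (0.26) and Dnajb9 (0.09), and all 17 lie below 0 in CMP.

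In GMP, no member passed in KO against WT although most values were lower. edgeR called 0 of 31, 3 had an unadjusted p below 0.05 and DESeq2 called 1, where 0.204% of all genes were called. The median log2 fold change was -0.74 and 27 of 31 members were below 0. The 3 with the smallest p were Sel1l (-1.33), Syvn1 (-1.15) and Hyou1 (-3.01). The index of long against short transcripts was -1.52, 0.28 and -1.65 in the KO libraries and 0.73, -0.34 and -0.15 in WT, and with it as a covariate Hyou1 went to -0.38 (adjusted p = 0.949), Sel1l to -1.28 and Syvn1 to -0.98. Sel1l was at 127.6, 121.0 and 145.7 CPM in WT and at 49.61, 67.19 and 39.84 in KO. Syvn1, its ligase partner, was at 35.52, 42.46 and 45.40 in WT and at 14.43, 21.22 and 19.92 in KO. Both genes had no KO library within the WT range. Hyou1 was spread widely in WT, at 203.5, 15.95 and 16.97 CPM, with KO at 11.27, 15.56 and 2.26. Of the GMP KO libraries, only KO 6 shares a series with WT libraries. KO 13 and KO 15 are of series M34, which holds only KO libraries, so for them KO and series cannot be told apart.

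P4hb, the most abundant isomerase of GMP, was at 1421, 2031 and 2249 CPM in WT and at 845.5, 1004 and 977.6 in KO. Xbp1 was at 296.3, 493.5 and 466.2 in WT and at 194.9, 225.3 and 220.6 in KO. Hspa5 overlapped, at 2374, 5342 and 5343 in WT and 2688, 2163 and 3279 in KO. Adding the spike-in percentage to the model gave 19 called members in KO against WT, but that percentage separates the KO libraries from all others, so the 2 cannot be told apart. Against HET, edgeR called 0 members in KO, 5 had an unadjusted p below 0.05 and DESeq2 called 3, where 0.261% of all genes were called. In HET against WT the count was 0 by both tools and at an unadjusted p below 0.05, with 0% of all genes called. Without HET 8, edgeR still called 0 members in each of the 3 comparisons. The 8 primary granule genes summed to 11770 to 33550 CPM in WT and 12210 to 22500 in KO. The 12 hepatocyte genes summed to 41.18, 1424 and 408.9 CPM in WT and 72.92, 31.83 and 87.19 in KO. The part of both lists was not tested.

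In MEP, no difference in the members was detectable. edgeR and DESeq2 called 0 of 31 in KO against WT, in KO against HET and in HET against WT, and 0 had an unadjusted p below 0.05 in each, where 0.00856%, 0.0171% and 0% of all genes were called. The median log2 fold change of KO against WT was 0.05 beside 0.06 over all genes, and 14 of 31 were below 0. These member values include KO 15, where Manf was at 573.1 CPM against 56.57 to 79.66 in the other KO libraries. Without HET 8 and KO 15 most members were below 0, among them Herpud1 (-0.52) and Sec61b (-0.33). Sesn2 (1.27) and Hyou1 (0.57) were among those above 0 then. Hspa5 was at 1187, 892.2 and 727.6 CPM in WT and at 837.9, 743.6, 762.8 and 1477 in KO, the last being KO 15. Asns was at 493.7, 255.7 and 400.1 CPM in WT and 353.8, 336.9, 341.2 and 860.3 in KO, where KO 15 was again the highest. Leaving out HET 8 and KO 15 together also gave 0 called members in each comparison. In MEP too, KO 13 and KO 15 are of series M34, which holds only KO libraries. Contents of the MEP gate differed between the genotypes. The 8 B cell genes summed to 254.4 to 1589 CPM in WT and 79.26 to 194 in KO, without overlap. The 10 erythroblast genes summed to 2480 to 18380 in WT and 894.1 to 3379 in KO, and the part of both lists was not tested.

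**Figure D4:**
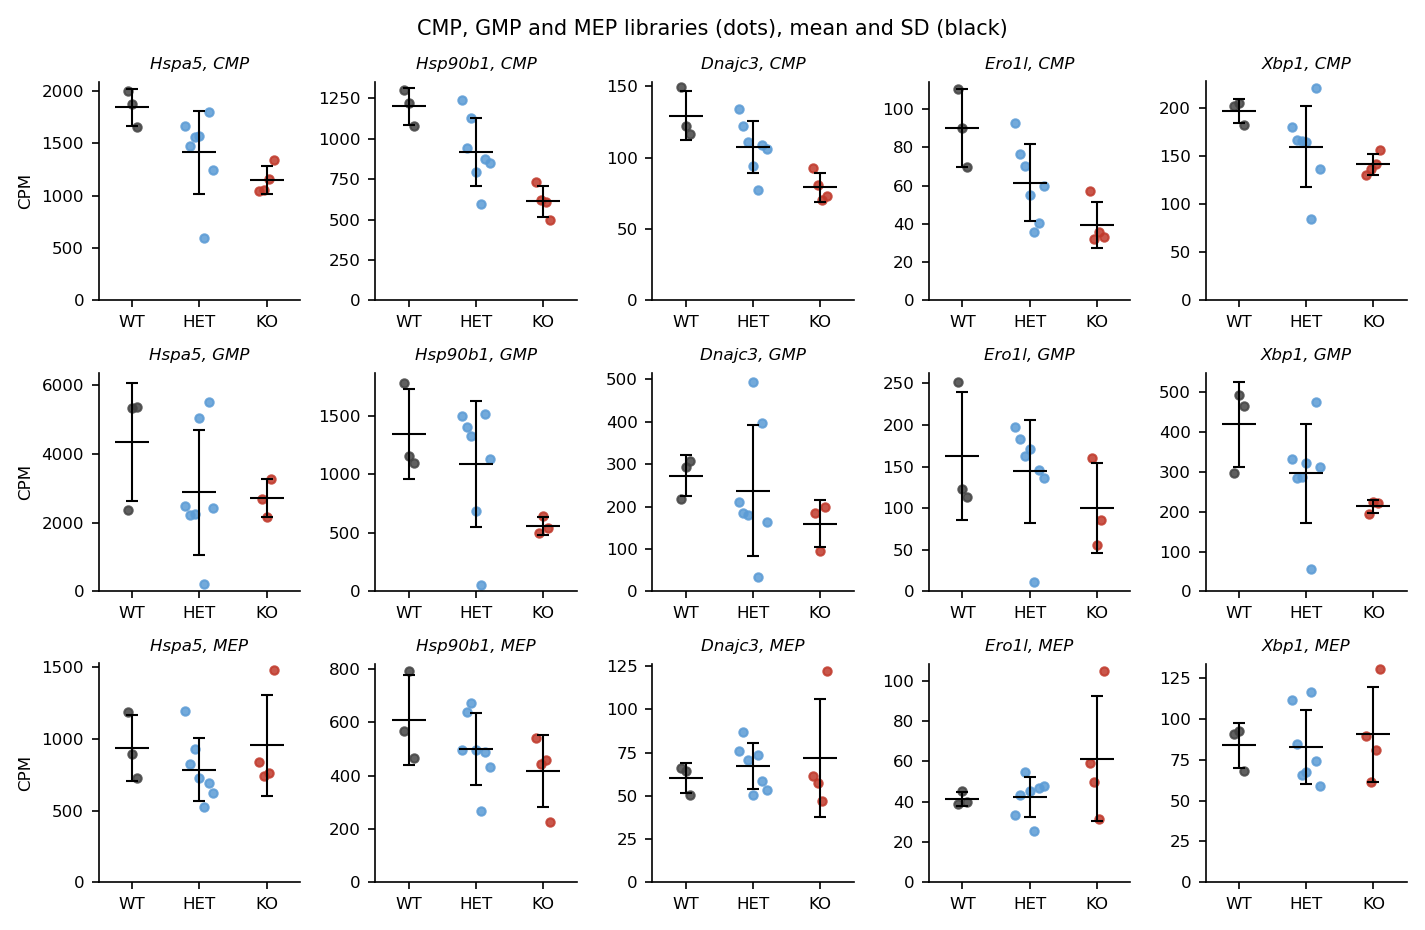
CPM of selected members in each CMP, GMP and MEP library (dots, linear axis from 0) by genotype, with the group mean and SD in black. In CMP the WT libraries of Hsp90b1 (1079 to 1302 CPM) lie above the KO libraries (496.0 to 730.8), while in MEP the groups of Hspa5 overlap.

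The KO effects of CMP, GMP and MEP were compared in 1 model over the 11902 genes listed in all 3 tables. edgeR and DESeq2 called 0 of 31 members in each of the 3 differences. The number with an unadjusted p below 0.05 was 2 for GMP against CMP (0.0169% of all genes called), 1 for MEP against CMP (0%) and 3 for GMP against MEP (0.414%). Without the 4 libraries that stand apart, 4 members had a lower KO effect in GMP than in MEP, where 2.45% of all genes were called. They were Pdia4 (-1.30), P4hb (-1.14), Sel1l (-1.39) and Sesn2 (-4.93). This fit keeps GMP KO 6 and GMP KO 15, whose median correlations with the other GMP libraries were 0.787 and 0.758. Sesn2 is near 0 in GMP, at 5.65, 1.96 and 2.83 CPM in WT and at 0, 0 and 0.564 in KO, so its fitted value depends on the small count that edgeR adds. The other differences still had 0 called members then, with 0.886% of all genes called for GMP against CMP and 0.00861% for MEP against CMP. LSK counts are in separate files and were not part of this model, so whether the LSK effect differs from the others was not tested.

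Among the WT committed progenitors, GMP had the highest summed chaperone level and MEP the lowest. The 17 chaperones summed to 12420 to 14950 CPM in WT GMP, 7761 to 9073 in WT CMP and 3590 to 5029 in WT MEP. Single chaperones could differ from the sum. Canx was at 835.6, 320.7 and 245.9 CPM in GMP, 611.6 to 838.6 in CMP and 398.6 to 697.1 in MEP, and the means of Pdia3 and Hyou1 were higher in CMP than in GMP. In GMP against MEP, 15 of 31 members were higher in GMP and none was lower, where 6.95% of all genes were called. They were 11 of the 17 chaperones, 3 of the 5 degradation genes and Xbp1, with a median log2 difference of 1.99 over the chaperones and 1.48 over all members, beside -0.07 over all genes. Xbp1 was at 296.3, 493.5 and 466.2 CPM in WT GMP and at 90.91, 92.65 and 67.80 in WT MEP (2.53, SE 0.400, adjusted p = 1.96e-05). Edem1, at 170.4, 216.9 and 202.5 in GMP and 54.09, 45.95 and 35.24 in MEP, had the lowest adjusted p (2.34, SE 0.344, adjusted p = 5.78e-06). Sdf2l1 was at 246.3, 219.9 and 182.2 in GMP and 39.51, 50.84 and 30.88 in MEP (2.64, SE 0.567, adjusted p = 0.00140), and Hspa5 was higher by 2.42 (SE 0.544, adjusted p = 0.00231). Every WT GMP library was above every WT MEP library for these 4 genes. No ATF4 target was called. Without MEP WT 12 the count was 9 in place of 15. With the length index as a covariate it was 19 higher, and Asns was lower in GMP (-0.86, adjusted p = 0.0101).

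Against CMP, fewer members passed. Edem2 was higher in GMP than in CMP (1.84, SE 0.445, adjusted p = 0.0240), at 99.31, 257.9 and 316.8 CPM against 60.49 to 92.17, where 1.03% of all genes were called. In MEP against CMP, Edem1 was lower (-1.35, SE 0.334, adjusted p = 0.0116) and Asns higher (1.96, SE 0.464, adjusted p = 0.00681), where 3.1% of all genes were called. Asns, the asparagine synthetase, was at 77.31 to 118.7 CPM in CMP and 255.7 to 493.7 in MEP. With the title number as a replicate block, Edem2 lost its call (1.75, adjusted p = 0.0845). It was also not called without CMP WT 2, WT 5 or WT 12 or without GMP WT 5 or WT 12, and without GMP WT 2 the count was 4. The MEP against CMP count was 1 without CMP WT 5, MEP WT 2 or MEP WT 12. Without the 4 libraries that stand apart, none of them WT but all part of the shared estimate of spread, 16 members were higher in GMP than in CMP (6.74% of all genes called), among them Hspa5 (1.53), P4hb (1.37), Xbp1 (1.38) and all 5 degradation genes. In MEP against CMP 10 were lower and Asns was higher (6.79%), and in GMP against MEP 19 were higher (17%).

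Levels of different genes were set side by side as CPM per kilobase of exon (RPKM), as means over WT libraries. Hspa5 was the highest member in CMP (435.6), GMP (1029) and MEP (221.2), and Pdia3 was the highest in LSK (541.5), where Hspa5 was at 280.9 and Hsp90b1 at 274.6. P4hb was the second in GMP, at 664.2. The 3 sensors were low throughout: Ern1 was at 2.54, 2.47, 2.495 and 1.07 RPKM in LSK, CMP, GMP and MEP, Atf6 at 4.90, 4.12, 2.51 and 1.91, and Eif2ak3 at 2.87, 2.02, 1.72 and 1.88. The factors below them were higher, Xbp1 at 56.0, 60.5, 128.9 and 25.8, and Atf4 nearly level at 58.1, 65.5, 50.5 and 68.3. Among the ATF4 targets Asns stood at 31.8, 37.9, 84.4 and 140.1 RPKM, and Ddit3 at 3.08, 2.81, 3.03 and 3.18. Trib3 (0.885 in LSK) and Ddit4 (0.314 in LSK) were the lowest there. LSK levels come from separately made tables and were set beside the others without a test.

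**Figure D5:**
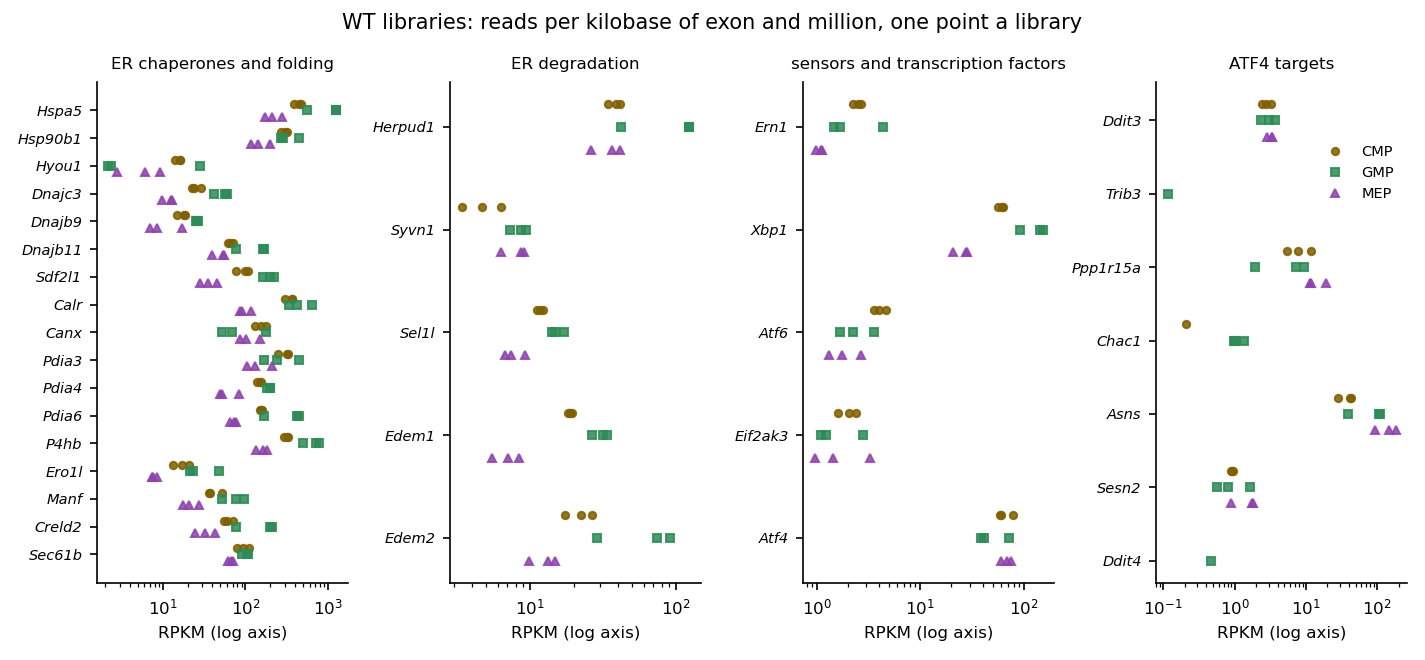
RPKM of each tabled member in each WT library of CMP, GMP and MEP (1 point a library; log axis, values of 0 are not drawn), in 4 panels by role. Hspa5 has the highest mean in each of the 3 populations (435.6, 1029 and 221.2 RPKM), and Xbp1 lies higher in GMP (mean 128.9) than in MEP (25.8).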

How the data were processed

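Per the labels' protocols, RNA of sorted cells was made into cDNA by Smart-seq2 and tagmented with Nextera XT, which does not mark strand, and the authors deposited raw read counts per Ensembl gene (the submitters' processing notes name featureCounts, mm10 and GRCm38). Which aligner and annotation release were used is not given in the sources used here. Symbols, exon lengths and coordinates were taken from GENCODE M21 (GRCm38). Of 64 libraries none shared identical counts with another. CPM used TMM-scaled library sizes, and RPKM also the exon union length.

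Each population was fitted with its 3 genotypes by edgeR 4.0.16 (R 4.3.3; robust quasi-likelihood test after filterByExpr, minimum count 10, minimum total 15), with Benjamini-Hochberg adjustment over all genes kept and a threshold of 0.05. Population contrasts used 1 model over 11902 genes listed in CMP, GMP and MEP. The SE is the absolute log2 fold change divided by the square root of F, an approximation. The scripts were tested on simulated data.

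Members given by library are those called in KO against WT with the smallest p in LSK and CMP, the 3 with the smallest p in GMP, and others chosen after their values were seen (members called between populations among them). Same-numbered WT libraries of MEP and CMP deviated together in all 3 pairs, by the data and not by a label, and those of GMP did not, and the block changed the call of Edem2 only. Members and lists were chosen with earlier results of these data known. Alternatives were RLE scaling, no count filter, DESeq2 1.42.0, only the groups compared, the series or title number as a block, the spike-in share as a covariate and leaving out each library. Chosen after seeing the data were leaving out the 4 libraries that stand apart, leaving out libraries of the genotype not compared, and the length index, which is the median centred log2(CPM + 0.5) of coding genes over 5000 bases of exon minus that of genes under 1500 bases.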

Additional observations from a re-analysis of the deposited data

Results flagged for a closer look

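A library was picked out where, within its group of 4 to 10 libraries, its gap to the nearest other library took up more of the group's range than Dixon's 95% limit allows, on the log2(CPM + 0.5) scale. Chance picks about 1 in 20 groups. Of 262 groups, 59 gave such a library, and 51 of these 59 are the 3 HET 8 libraries and MEP KO 15. The 36 for members called in KO against WT in at least 1 population follow, as CPM.

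In LSK, only Dnajb11 in WT22.8 was picked out, at 159.1. In CMP, HET 8 was low for Hspa5 (594.1), Dnajb11 (69.62), Sdf2l1 (34.81), Calr (425.6), Pdia4 (123.5), Pdia6 (301), P4hb (285.2) and Creld2 (29.2), and HET 9 stood apart for Atf4 (185.7).

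In GMP, HET 8 was low for Hspa5 (228), Hsp90b1 (55.55), Dnajc3 (35.08), Dnajb11 (43.85), Sdf2l1 (14.62), Calr (78.94), Pdia4 (35.08), Pdia6 (81.86), P4hb (131.6), Ero1l (11.69) and Xbp1 (55.55), and high for Ddit4 (8.771).

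In MEP, HET 8 was high for Sdf2l1 (136), Calr (645.9), Pdia6 (1057), Manf (334.4), Creld2 (152.3) and Ddit3 (22.61). It also stood apart for Canx (174.3), Pdia4 (67.54), P4hb (199.9) and Atf4 (129.4). MEP KO 15 was low for Hyou1 (8.511) and high for Manf (573.1) and Creld2 (233.7), and stood apart for Atf4 (139).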

How the results depend on the processing

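Counts are members called. In LSK, KO against WT gave 20 and 11 to 20 with 1 library left out, 8 with the spike-in share and 10 with the length index. KO against HET gave 6 and 3 to 8 with 1 left out, 16 with the series block and 3 with the spike-in share, the length index or only both groups fitted. In CMP, KO against WT gave 3 and 0 to 12 with 1 left out, 0 with the series block, 5 with the length index and 6 with only both groups. CMP KO against HET gave 0, 3 by DESeq2 and 0 to 7 with 1 left out. In GMP, KO against WT gave 0, 1 by DESeq2 and 19 with the spike-in share, and KO against HET 0, 3 and 14. WT GMP against CMP gave 1 and 0 to 4 with 1 left out, 2 with RLE scaling, 7 by DESeq2, 8 with the length index and 16 without the 4 libraries that stand apart. WT MEP against CMP gave 2 and 1 to 2, 4, 9 and 11 (1 left out, DESeq2, length index, without the 4), and WT GMP against MEP 15, 9 to 16 with 1 left out and 20 with the length index (19 higher, Asns lower). The KO effect in GMP against MEP gave 0, 3 with the length index and 4 without the 4. The causes were not tested. No log2 fold change of a called member changed sign.

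Title numbers repeat across CMP, GMP and MEP. Of 40 same-numbered pairs, 25 correlated above 0.1 (range -0.45 to 0.69), and 19 correlated best with their own number. The WT pairs of MEP and CMP were all 3 above 0.1 (0.217 to 0.349), and those of GMP with CMP (0.001 to 0.207) and with MEP (-0.43 to -0.069) were not. With the replicate block, WT GMP against CMP gave 0 called members, WT MEP against CMP 2 and WT GMP against MEP 15.

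With 3 or 4 libraries in the WT and KO groups of CMP, GMP and MEP, smaller differences were not detectable. Members near the threshold in LSK were the least firm: of 23 fits with 1 library left out, P4hb was called in 7, Atf4 in 9 and Creld2 in 12.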
